A study of Homo sapiens with 12 samples.

Results

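Galectins are lectins that bind galactose-ended sugar chains on glycoproteins and glycolipids. Here 4 of them, LGALS1, LGALS3, LGALS8 and LGALS9, and the galectin-3-binding protein LGALS3BP were followed on 12 arrays of MDA-MB-231, an established human line of triple-negative breast cancer. For 6 arrays the cells had been transfected with a gapmer against CYTOR (LINC00152), a long noncoding RNA, and for 6 with a control LNA. The 5 genes were chosen by family name with the differences between these same arrays already known, the higher LGALS3 signal among them. Their differences between the groups are therefore given as a description, with no test. All 10 probes annotated to the 5 genes by their current symbol were kept and are given separately, out of 20046 genes that the array annotation names. An LNA gapmer is an antisense oligonucleotide that leads RNase H to cut its target. Both groups received 30 nM of LNA with 5 μl of lipid reagent in 2 ml, on 300000 cells, for 24 h. The labels put 1 CYTOR LNA array and 3 control arrays in batch 1, and 5 CYTOR LNA arrays and 3 control arrays in batch 2. They do not say whether replicates were separate cultures, so the errors cover the spread among these arrays, and part or all of it may be technical. The study knocks down CYTOR and asks what else changes in the transcriptome.

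Galectins are made in the cytosol and leave the cell by an unconventional route. Outside they crosslink branched N-glycans on receptors, integrins and matrix proteins. Inside, galectin-3, galectin-8 and galectin-9 gather on endosomes and lysosomes whose membrane has broken and exposed its inner sugars. Galectin-1 is a dimer of a single carbohydrate-binding domain, and galectin-3 joins such a domain to a proline- and glycine-rich tail that lets it form larger assemblies. Galectin-8 and galectin-9 each carry a pair of different sugar-binding domains on 1 chain. LGALS3BP is no galectin: it is a heavily glycosylated secreted protein that galectin-3 and matrix proteins bind, and it is known as an interferon-induced gene.

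The start regions of the genes that moved apart on these arrays, LGALS3 and LGALS8, and of the interferon-induced LGALS3BP are printed for reference, as sequence context for the values that follow. RefSeq's table for GRCh38.p14 held 6 start windows for 4 of the 5 genes, with LGALS1 not among them. Each sequence is the 250 bases before an annotated start, on the strand of the gene, and capitals mark the motifs found by a search of both strands. The GC box was searched as GGGCGG. The CCAAT box was searched by its reverse strand letters, ATTGG. The core promoter element searched was TATAAA. An E-box was taken to be CACGTG. The AP-1 type motif was TGANTCA, with any base in the middle. The interferon response type motif was a pair of GAAA with any 2 bases between them. No match overlapped another in the windows shown.
LGALS3, chr14:55129002-55129251, plus strand: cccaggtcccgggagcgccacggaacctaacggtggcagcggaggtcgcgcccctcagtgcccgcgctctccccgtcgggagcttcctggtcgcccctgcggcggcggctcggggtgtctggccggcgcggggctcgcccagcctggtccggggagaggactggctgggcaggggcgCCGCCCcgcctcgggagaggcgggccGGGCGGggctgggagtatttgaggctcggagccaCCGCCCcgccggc
LGALS8, upstream start, chr1:236517964-236518213, plus strand: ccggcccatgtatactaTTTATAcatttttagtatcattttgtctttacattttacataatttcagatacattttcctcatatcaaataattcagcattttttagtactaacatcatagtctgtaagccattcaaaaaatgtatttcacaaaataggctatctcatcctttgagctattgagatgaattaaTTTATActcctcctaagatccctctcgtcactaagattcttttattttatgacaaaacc
LGALS8, downstream start, chr1:236523732-236523981, plus strand: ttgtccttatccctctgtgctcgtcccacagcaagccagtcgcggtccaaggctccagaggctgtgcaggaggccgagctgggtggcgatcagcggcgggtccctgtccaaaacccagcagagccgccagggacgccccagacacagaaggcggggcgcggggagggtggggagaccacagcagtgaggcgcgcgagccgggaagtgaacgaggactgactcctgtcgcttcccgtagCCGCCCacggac
LGALS3BP, chr17:78979924-78980173, minus strand: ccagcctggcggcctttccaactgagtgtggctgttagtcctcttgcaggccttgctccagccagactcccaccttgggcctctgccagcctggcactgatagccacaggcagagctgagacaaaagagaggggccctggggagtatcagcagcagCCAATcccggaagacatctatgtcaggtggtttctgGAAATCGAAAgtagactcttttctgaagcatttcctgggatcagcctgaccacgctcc

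The LGALS3 window held 3 GC boxes in a sequence of 78.8% G and C. The LGALS8 starts differed in kind. The upstream window had 29.2% G and C and TATAAA matches on the reverse strand, 233 and 59 bases before the start. The downstream window had 68% G and C and a single GC box 12 bases before its start. The LGALS8 window between them held none of these motifs. Only the LGALS3BP window of the 6 carried the paired GAAA motif, 58 bases before the start, with a CCAAT box further upstream. Over all 35116 RefSeq start windows of the same length, 42.6% held a GC box, 32% a CCAAT box, 10.7% TATAAA, 6.57% the AP-1 type motif, 6.34% the E-box and 3.02% the paired GAAA. These matches describe letters, not binding. RefSeq also lists an antisense noncoding gene, LGALS8-AS1, for which the array annotation names no probe.

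The brightest CYTOR probe averaged 6.74 ± 0.10 after the CYTOR LNA and 7.83 ± 0.12 after the control LNA on the log2 scale (SD, n = 6 each; limma adjusted p = 8.0e-13). The median of each array rounded to 6.53, and the 23662 probes whose mean reached the median of all probe means, 6.52, were tested. Of the member probes 6 passed this filter, covering 4 genes, and 4 did not. The dimmest member inside the filter, an LGALS8 probe, averaged 6.89 after the CYTOR LNA and 6.83 after the control LNA, and the brightest outside it, the second LGALS3 probe, 6.50 after the CYTOR LNA and 6.49 after the control LNA. Detection p-values were not used, so background was not measured, and signal near 6.5 could not be told apart from it. All 8 MDA-MB-231 markers with a named probe (VIM, AXL, CAV1, MSN, CD44, TGFBI, PLAU and EGFR) were above the median. So were 6 of 9 luminal markers (not ESR1, FOXA1 and TFF1), 6 of 8 leukocyte markers (not PTPRC and CD3E) and 2 of 6 fibroblast markers (not COL1A2, COL3A1, DCN and LUM). Several of these lay near 6.5 all the same. After the CYTOR LNA and the control LNA, CDH1 averaged 6.52 and 6.52, GATA3 6.56 and 6.55, ERBB3 6.55 and 6.56, and ITGAM 6.51 and 6.58. For such markers a place above the median does not show that the gene was expressed. The brightest probe of CD68, a lysosomal protein of macrophages, exceeded 97.5% of probes, that of the epithelial adhesion molecule EPCAM 84.7% and that of CD14 84.4%.

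Among the galectins, LGALS3 signal was higher after the CYTOR LNA, LGALS8 signal was lower at its pair of brightest probes, and LGALS1 differed by about the spread between arrays. LGALS3BP was higher mainly on 1 array. LGALS9 was below the filter in both groups. In the fit across all probes, 3 of the 6 tested member probes had a limma adjusted p below 0.05, 1 higher and 2 lower, where 6.23% of all tested probes did. The groups did not overlap for the same 3 probes, as for 5.24% of all tested probes. Since that contrast helped choose the genes, these counts are a description.

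**Figure D1:**
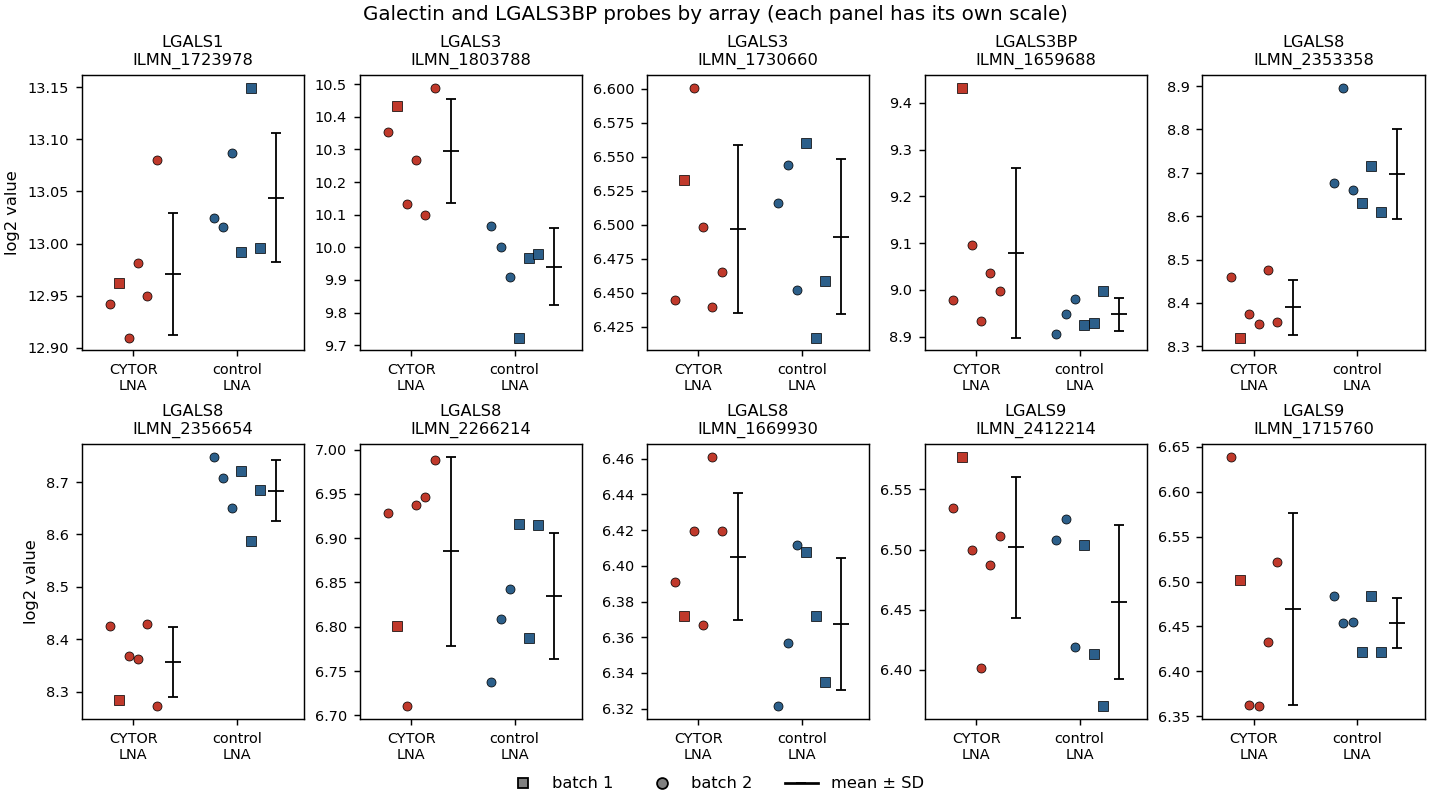
Log2 values of the 10 member probes on each array (red, CYTOR LNA; blue, control LNA; squares, batch 1; circles, batch 2), with the mean and SD of the 6 arrays of a group beside them; every panel has its own vertical scale. The groups are apart for LGALS3 ILMN_1803788 and for LGALS8 ILMN_2353358 and ILMN_2356654, and 1 square stands above all other LGALS3BP points at 9.43.

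LGALS3, the galectin with the oligomerizing tail, was read by 2 probes. Probe ILMN_1803788, annotated to the protein-coding messenger RNA, had 10.10, 10.31 and 10.49 as the lowest, median and highest of the 6 CYTOR LNA arrays, against 9.72, 9.97 and 10.06 in the 6 control LNA arrays. Every CYTOR LNA array stood above the highest control array. The fitted difference was 0.35 on the log2 scale (SE 0.074), a 1.28-fold higher signal, and the probe was brighter than 95.9% of all probes. Its difference was 0.54 in batch 1, which holds a single CYTOR LNA array, and 0.28 in batch 2. The interaction of group and batch was not called for it (limma adjusted p = 0.34, difference between batches -0.27, SE 0.145), which does not show that the batches were alike. In bulk RNA, more cells with the transcript and more transcript per cell cannot be told apart. The second probe, ILMN_1730660, is annotated to a noncoding RefSeq transcript of the LGALS3 gene. It averaged 6.50 ± 0.06 after the CYTOR LNA and 6.49 ± 0.06 after the control LNA, with overlapping groups and a difference of 0.01 (SE 0.035). It was brighter than 43.1% of probes, so it lay near the array median in both groups and cannot show whether that transcript changed.

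LGALS8, the tandem-repeat galectin that marks broken endosomes for autophagy, was lower by nearly as much as LGALS3 was higher, at 2 of its 4 probes. Probe ILMN_2356654 had a lowest, median and highest value of 8.27, 8.37 and 8.43 in the CYTOR LNA arrays, against 8.59, 8.70 and 8.75 in the control LNA arrays. Probe ILMN_2353358 had 8.32, 8.37 and 8.48 after the CYTOR LNA, against 8.61, 8.67 and 8.90 after the control LNA. At both probes all 6 CYTOR LNA arrays were below the lowest control array. The fitted differences were -0.35 (SE 0.052) and -0.34 (SE 0.055), 1.27-fold and 1.26-fold lower. They were of similar size in the batches, at -0.38 and -0.33 in batch 1 and -0.33 and -0.34 in batch 2. The interaction with batch was called at neither (limma adjusted p = 0.86 and 0.98).

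Of the other LGALS8 probes 1 passed the filter. This probe, ILMN_2266214, annotated to the same RefSeq transcript as ILMN_2356654, ran from 6.71 over a median of 6.93 to 6.99 in the CYTOR LNA arrays, against 6.74, 6.83 and 6.92 in the control LNA arrays. The groups overlapped, and the difference was 0.05 (SE 0.048), with -0.07 in batch 1 and 0.11 in batch 2. Probe ILMN_1669930, annotated to another LGALS8 transcript, was among the dimmest on the array, brighter than 1.4% of probes, with means of 6.41 ± 0.04 after the CYTOR LNA and 6.37 ± 0.04 after the control LNA. At that level it cannot show whether its transcript changed. The arrays' own deviations at the brighter pair were also only loosely related: after group and batch were removed, ILMN_2353358 and ILMN_2356654 correlated at r = 0.168 over the 12 arrays, a description in which the arrays share their normalization.

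LGALS1, the dimeric galectin, was among the brightest transcripts of the array, above 99.6% of probes. Its single probe, ILMN_1723978, had 12.91, 12.96 and 13.08 as the lowest, median and highest CYTOR LNA values, against 12.99, 13.02 and 13.15 in the control LNA arrays. Of the CYTOR LNA arrays 5 lay below the lowest control array and replicate 6 lay within the control range. The difference was -0.07 (SE 0.042), with -0.08 in batch 1 and -0.07 in batch 2.

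LGALS3BP, the secreted ligand of galectin-3, was read by probe ILMN_1659688. Its values were 8.93, 9.02 and 9.43 (lowest, median and highest) in the CYTOR LNA arrays, against 8.90, 8.94 and 8.997 in the control LNA arrays. Of the 6 CYTOR LNA arrays 4 lay above the highest control array, replicate 6 only barely (8.9976 against 8.9973). The highest, 9.43, came from CYTOR LNA replicate 2, the only CYTOR LNA array of batch 1, and the next was 9.10. The difference of 0.18 (SE 0.065) over both batches became 0.06 without that array. It was 0.48 within batch 1 and 0.06 within batch 2. The interaction of group and batch was called here (limma adjusted p = 0.026, difference between batches -0.42, SE 0.108), as for 4.12% of all tested probes, and for none of the 5 other tested member probes. It was lost without control LNA replicate 3 (adjusted p = 0.056) or 4 (0.054), and it could not be fitted without CYTOR LNA replicate 2, so it rests on that array. The effect of batch itself, batch 2 minus batch 1 with group in the fit, was not called for any of the 6 member probes or for any probe (0% of 23662, with 1.79% at an unadjusted p under 0.05). For LGALS3BP it was -0.16 (SE 0.069, unadjusted p = 0.033, limma adjusted p = 1). The interaction had an unadjusted p under 0.05 at 18.3% of all tested probes. The labels do not say whether the values were adjusted for batch before deposit. A small batch term therefore does not show that batch had no effect, and the SE and interaction calls share this limit.

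LGALS9, the other tandem-repeat galectin and also an interferon-induced gene, had no probe above the filter. Probe ILMN_2412214 averaged 6.50 ± 0.06 after the CYTOR LNA and 6.46 ± 0.06 after the control LNA, and ILMN_1715760 averaged 6.47 ± 0.11 after the CYTOR LNA and 6.45 ± 0.03 after the control LNA. All 24 of these values lay between 6.36 and 6.64, and the groups overlapped at both probes. These levels could not be told apart from background. LGALS9 has near-identical copies, LGALS9B and LGALS9C, so that the probes may also take up their transcripts.

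**Figure D2:**
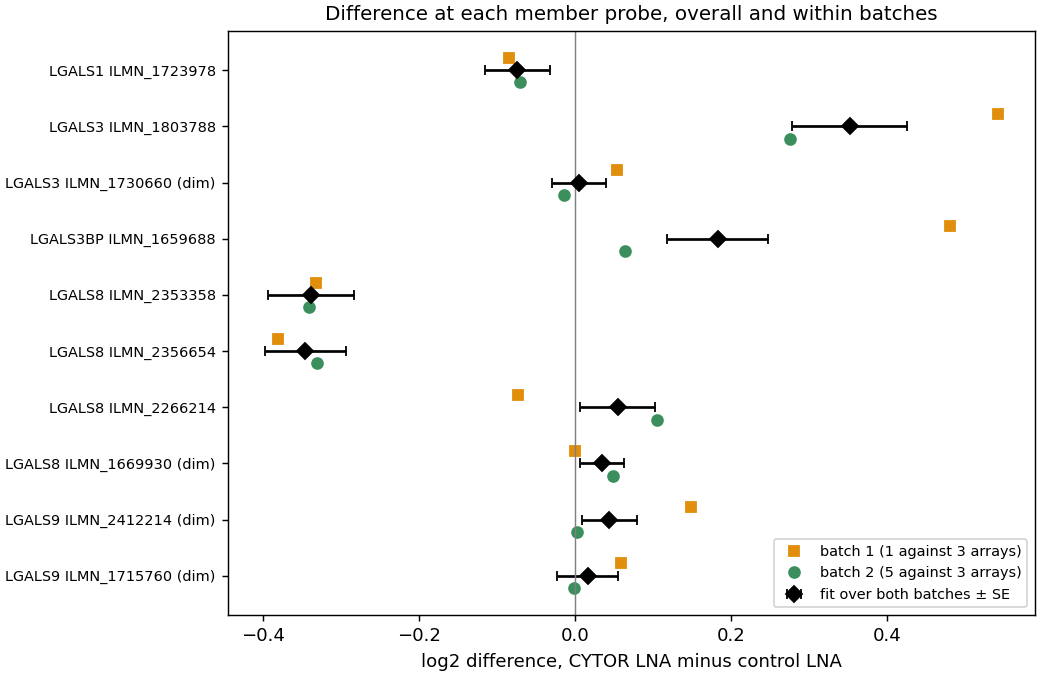
Log2 difference, CYTOR LNA minus control LNA, at each of the 10 member probes: the fit over both batches with its SE (diamonds), batch 1 with its single CYTOR LNA array (squares) and batch 2 (circles); probes marked dim were below the filter. LGALS8 has nearly the same difference in both batches at its brighter probes, while LGALS3BP has 0.48 in batch 1 and 0.06 in batch 2.

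The other members of the galectin family were mostly below the filter. All 13 other galectin genes listed (among them LGALS2, LGALS4, LGALS7, LGALS12 and the eosinophil protein CLC) had a named probe, 17 probes in all, and 4 of these passed the filter. Their means ran from 6.40 to 7.62 after the CYTOR LNA and from 6.39 to 7.56 after the control LNA. The brightest was LGALSL, above 81.9% of probes, a galectin-related protein that is not known to bind galactosides, with 7.62 ± 0.08 after the CYTOR LNA and 7.56 ± 0.06 after the control LNA (difference 0.05, SE 0.049, limma adjusted p = 0.65). None of the 4 tested genes was called by limma, and at an unadjusted p under 0.05 none was either.

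Probes that followed LGALS3 from array to array were sought over all tested probes of other named genes. After group and batch were removed, the probe most like LGALS3 ILMN_1803788 over the 12 arrays was that of the noncoding gene LINC02208 (Pearson r = 0.966), then MRPL3, a mitochondrial ribosomal protein (0.932), AOPEP, an aminopeptidase (0.927), and RAB9B, a small GTPase (0.923). Over the deposited values themselves LINC02208 was again first (0.938), followed by SEC61A2 (0.932), TTC9C (0.931) and BCAP29 (0.917). These are the highest of 17208 probes compared on 12 arrays and are given as a description. Among the members, LGALS1 and LGALS8 ILMN_2356654 deviated in opposite directions (r = -0.84), as did LGALS3BP and LGALS8 ILMN_2266214 (-0.549) and LGALS3 and LGALS8 ILMN_2356654 (-0.504), and LGALS1 and LGALS3 in the same one (0.462). The other 11 pairs of tested member probes lay between -0.201 and 0.261.

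Genes that make galectin ligands, carry them or act with galectins were read from 8 lists, written from general knowledge but with results of these arrays in part known. Of their 171 genes 161 had a named probe and 130 were tested, each by its brightest probe. By limma 12 of the 130 were lower after the CYTOR LNA and 8 higher (adjusted p below 0.05). Over all 12714 genes tested 5.4% were lower and 2.49% higher. The median difference over the 130 genes was 0.005, and over all genes 0.004. Of the 22 called genes of all lists, markers included, 13 kept their call without each of the 12 arrays in turn and 9 lost it without at least 1. The counts were 7 lower without CYTOR LNA replicate 1 and 4 higher without control LNA replicate 2.

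**Figure D3:**
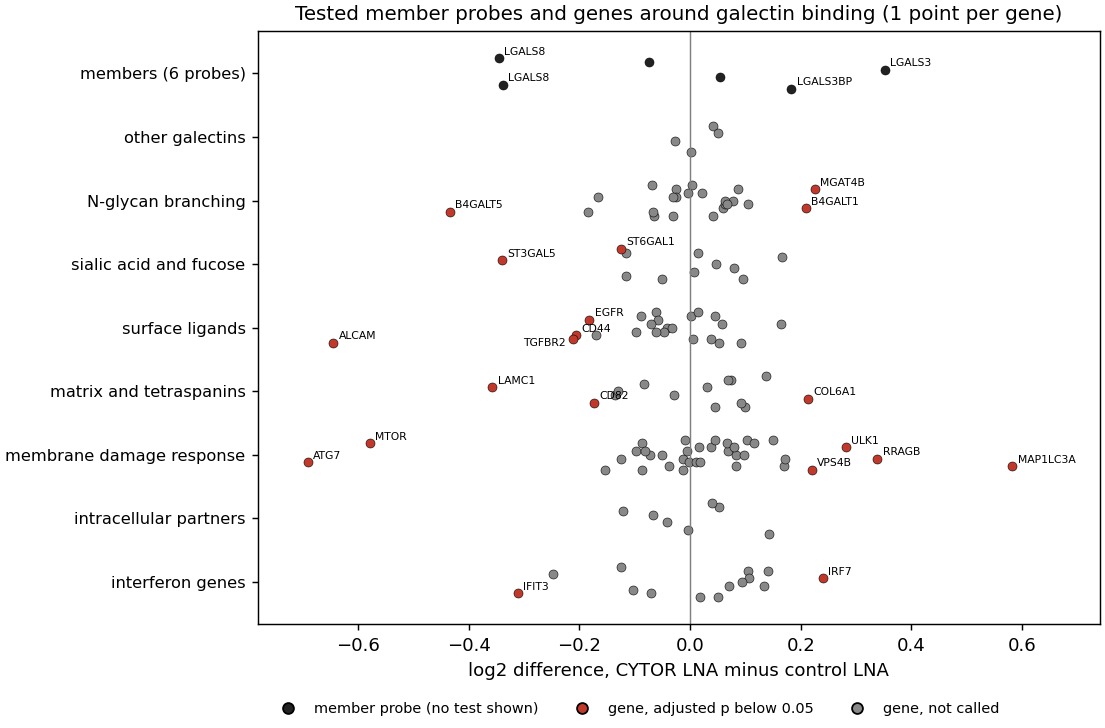
Log2 difference, CYTOR LNA minus control LNA, of the 6 tested member probes (top row) and of each tested gene of the 8 lists by its brightest probe; red points have a limma adjusted p below 0.05 over all probes. ALCAM, B4GALT5, ATG7 and MTOR lie far to the left and MAP1LC3A and RRAGB to the right, with most genes between -0.2 and 0.2.

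Of 23 tested genes listed for building branched or galactose-ended glycans, 1 fell, 2 rose and 20 were not called, with a median difference of 0.004. The list mixes genes of N-glycans, O-glycans and glycolipids, so these counts are not of N-glycan enzymes alone. B4GALT5, a galactosyltransferase best known for making lactosylceramide, had 9.73, 9.87 and 9.96 (lowest, median and highest) in the CYTOR LNA arrays, against 10.22, 10.31 and 10.46 in the control LNA arrays, with no overlap. It fell by 0.43 on the log2 scale (SE 0.059, limma adjusted p = 1.5e-05), with -0.58 in batch 1 and -0.37 in batch 2. B4GALT1, the main galactosyltransferase of N-glycans, rose by 0.21 (SE 0.059, limma adjusted p = 0.034), and MGAT4B, which starts an N-glycan branch, rose by 0.23 (SE 0.059, limma adjusted p = 0.019), with 0.09 at a second tested probe. Both calls leaned on the batch 1 array: without CYTOR LNA replicate 2 the differences were 0.14 (adjusted p = 0.23) for B4GALT1 and 0.12 (0.24) for MGAT4B. Both were also lost without control LNA replicate 2 (0.052 and 0.051), and B4GALT1 without CYTOR LNA replicate 3 (0.062) or 6 (0.054) or control LNA replicate 3 (0.059). MGAT5, which adds the branch that galectin-3 prefers, was looked at after its values were seen. Its brightest probe had 8.44, 8.65 and 8.70 in the CYTOR LNA arrays, against 8.71, 8.79 and 8.91 in the control LNA arrays. That difference was -0.18 (SE 0.057) and missed the threshold (limma adjusted p = 0.055). The adjusted p lay on either side of the threshold among the settings tried, with 0.029 without the intensity trend, 0.049 after quantile normalization, 0.083 with the replicate block and 0.1 over all probes with values. Without CYTOR LNA replicate 2, as within batch 2, the MGAT5 difference was -0.12 (adjusted p = 0.31), and without control LNA replicate 2 it was -0.22 (0.041). A second MGAT5 probe fell by 0.17 (SE 0.042, adjusted p = 0.014).

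Of 11 tested enzymes that add or remove sialic acid, fucose or galactose on glycoproteins or glycolipids, 2 fell and none rose (median 0.007). ST3GAL5, the sialyltransferase that makes the ganglioside GM3, had 7.81, 7.85 and 7.88 in the CYTOR LNA arrays, against 8.16, 8.18 and 8.28 in the control LNA arrays. It fell by 0.34 (SE 0.046, limma adjusted p = 1.5e-05), and its second probe fell by 0.30. The groups did not overlap at either probe. ST6GAL1, whose sialic acid blocks galectin-1 binding, fell by 0.12 (SE 0.033, limma adjusted p = 0.024). With means of 6.56 after the CYTOR LNA and 6.69 after the control LNA it was close to the array median, and its call was lost without CYTOR LNA replicate 1 (0.052), 2 (0.059) or 4 (0.053) or control LNA replicate 2 (0.091) or 3 (0.052).

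Among 23 tested surface glycoproteins known to bind galectins, 4 fell, none rose and 19 were not called (median -0.05). ALCAM, an adhesion molecule that galectin-8 binds, was the largest: it had 9.56, 9.72 and 9.96 in the CYTOR LNA arrays, against 10.28, 10.38 and 10.53 in the control LNA arrays. It fell by 0.64 (SE 0.067, limma adjusted p = 2.1e-07), a 1.56-fold lower signal, with -0.39 in batch 1 and -0.75 in batch 2. The hyaluronan receptor CD44 (-0.21), TGFBR2 (-0.21) and EGFR (-0.18) fell at their brightest probes, with overlapping groups and limma adjusted p of 0.034 to 0.040. Other tested probes had 0.07 and -0.05 for CD44, -0.14 for TGFBR2 and -0.01 for EGFR. The CD44 probe with 0.07 averaged 6.64 after the CYTOR LNA and 6.57 after the control LNA. The EGFR probe with -0.01 averaged 6.59 and 6.60. Signal this close to the array median says little about the transcript, yet it enters the means that follow. The CD44 probe with -0.05 was brighter, at 9.15 and 9.22. With the mean of the tested probes of a gene all 3 calls ended, at -0.06 (adjusted p = 0.6) for CD44, -0.17 (0.053) for TGFBR2 and -0.10 (0.081) for EGFR. The CD44 call was lost without CYTOR LNA replicates 1, 2 or 3 or control LNA replicates 3, 4 or 6, with adjusted p of 0.054 to 0.15. The TGFBR2 call was lost without CYTOR LNA replicates 1, 2, 3 or 6 or control LNA replicates 1, 3 or 4, with 0.057 to 0.11. The EGFR call was lost without CYTOR LNA replicates 1, 3, 4 or 5 or control LNA replicates 1, 2, 3, 4 or 6, with 0.05 to 0.13. Other well-known ligands were not called: basigin, BSG, differed by 0.16 (SE 0.069, limma adjusted p = 0.19), the integrin ITGB1 by -0.04 (0.78) and the transferrin receptor TFRC by 0.003 (0.99).

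Of 14 tested matrix and tetraspanin partners, 2 fell and 1 rose (median 0.04). LAMC1, a laminin chain that carries galectin ligands, fell by 0.36 (SE 0.055, limma adjusted p = 9.4e-05), with 10.00, 10.11 and 10.26 in the CYTOR LNA arrays against 10.39, 10.47 and 10.52 in the control LNA arrays. CD82, a tetraspanin, fell by 0.17 (SE 0.052, limma adjusted p = 0.047). It kept that call only without CYTOR LNA replicates 2 or 5 or control LNA replicate 5, with adjusted p up to 0.14 otherwise. A second CD82 probe fell by 0.15 (SE 0.043, limma adjusted p = 0.039). COL6A1, a collagen VI chain that LGALS3BP binds, rose by 0.21 (SE 0.062, limma adjusted p = 0.038). Its difference, like that of LGALS3BP, was larger in batch 1, with 0.48 in batch 1 and 0.11 in batch 2. Its call was lost without CYTOR LNA replicate 2 (difference 0.11, adjusted p = 0.34), CYTOR LNA replicates 1 or 3 or control LNA replicates 2, 4, 5 or 6 (0.051 to 0.08).

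The response to broken lysosomes, in which galectin-3 works with TRIM16 and galectin-8 with CALCOCO2 and the mTOR machinery, held the largest differences in each direction among the genes of these lists, ATG7 and MAP1LC3A. Of 36 tested genes 2 fell, 4 rose and 30 were not called (median 0.02). CALCOCO2 and TRIM16 were not called: CALCOCO2 differed by 0.02 (SE 0.045, limma adjusted p = 0.89) and TRIM16 by -0.01 (SE 0.041, adjusted p = 0.92). The TRIM16 probe averaged 6.71 after the CYTOR LNA and 6.73 after the control LNA, close to the array median. Genes of the mTOR machinery were called. RRAGB, a Rag GTPase that brings mTORC1 to the lysosome, had 8.58, 8.63 and 8.67 in the CYTOR LNA arrays, against 8.19, 8.25 and 8.43 in the control LNA arrays. It rose by 0.34 (SE 0.053, limma adjusted p = 0.00012), and a second probe rose by 0.30. The kinase MTOR itself fell by 0.58 (SE 0.058, limma adjusted p = 1.2e-07). ATG7, which activates ubiquitin-like proteins of autophagy, fell by 0.69 (SE 0.051, limma adjusted p = 5.7e-10). MAP1LC3A, which encodes an LC3 protein of autophagosomes, rose by 0.58 (SE 0.058, limma adjusted p = 1.0e-07). ULK1 (0.28) and the ESCRT ATPase gene VPS4B (0.22) also rose and are named outside the naming rule, after their values were seen. The VPS4B call was lost without CYTOR LNA replicate 2 (difference 0.16, adjusted p = 0.18), CYTOR LNA replicates 4 or 5 or control LNA replicates 2 or 6 (0.057 to 0.10).

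**Figure D4:**
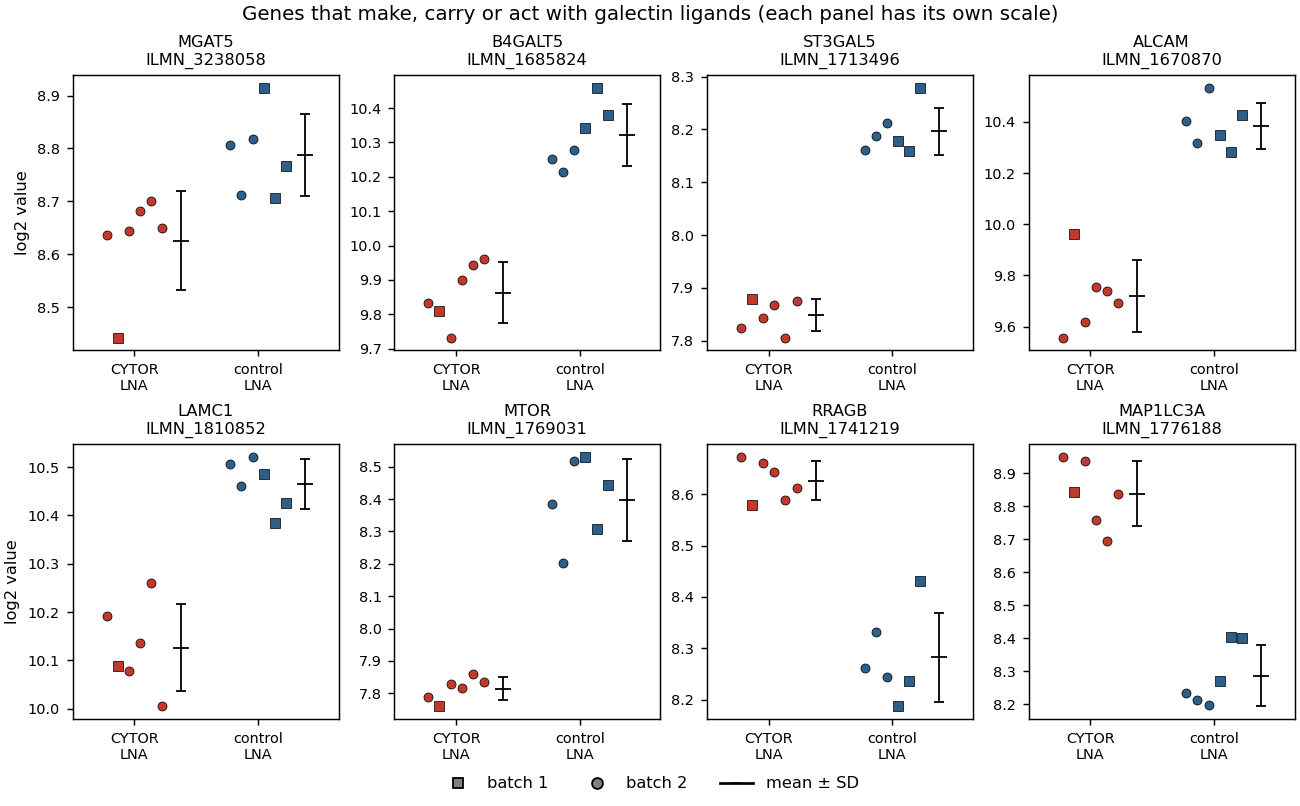
Log2 values on each array of 8 genes that make, carry or act with galectin ligands (red, CYTOR LNA; blue, control LNA; squares, batch 1; circles, batch 2), with the mean and SD of 6 arrays; every panel has its own scale. The groups do not overlap in any of the 8 panels, and MGAT5, the closest pair, runs up to 8.70 after the CYTOR LNA and from 8.71 after the control LNA. The 8 genes were picked with their values known, so this lack of overlap is a product of the choice. Called genes with overlapping groups, such as CD44 and B4GALT1, are not shown. Of all tested probes 5.24% had groups that do not overlap.

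Intracellular partners of galectin-1 and galectin-3 (7 tested, HRAS, CTNNB1 and BCL2 among the listed) gave 0 calls by limma in either direction, with a median of -0.003. At an unadjusted p under 0.05 there were 2, BCL2 (-0.12, limma adjusted p = 0.097) and ANXA7 (0.14, limma adjusted p = 0.12). Of 14 tested interferon response genes, the group to which LGALS3BP and LGALS9 belong by induction, 1 fell and 1 rose (median 0.06). IFIT3 fell by 0.31 (SE 0.065, limma adjusted p = 0.0032) and had -0.13 and -0.16 at 2 further probes. The transcription factor gene IRF7 rose by 0.24 (SE 0.046, limma adjusted p = 0.0013).

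Macrophages and other leukocytes are rich in galectin-3, so their markers were read beside it. Of 6 tested leukocyte markers CD14 rose (0.33, SE 0.059, limma adjusted p = 0.00057), with 0.06 at its second probe, and the other 5 were not called (list median 0.07). The CD14 difference was 0.10 in batch 1, with its single CYTOR LNA array, and 0.42 in batch 2. LGALS3 had 0.54 in batch 1 and 0.28 in batch 2. CD74 had 0.09 (SE 0.039, unadjusted p = 0.028, limma adjusted p = 0.19), and CD68 had 0.10 at its brightest probe and 0.16 at another (unadjusted p = 0.0073, limma adjusted p = 0.087). LYZ had 0.05, while CSF1R (-0.08) and ITGAM (-0.07) differed in the other direction. The summed level of 8 leukocyte markers ran from 11.39 to 11.53 in the CYTOR LNA arrays and from 11.27 to 11.48 in the control LNA arrays on the log2 scale, while PTPRC, the pan-leukocyte marker, was below the array median. Values were summed before the logarithm, so the sum mainly reads its brightest marker, CD68. That probe averaged 10.92 after the CYTOR LNA and 10.84 after the control LNA. By limma none of 6 luminal and 2 fibroblast markers was called, with 1 in each list at an unadjusted p under 0.05 (EPCAM, -0.12, and PDGFRB, 0.09), and 3 of 8 MDA-MB-231 markers fell (PLAU, -0.27, with CD44 and EGFR). The part of these markers in the LGALS3 difference was not tested.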

How the data were processed

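Total RNA of 12 MDA-MB-231 samples was read on Illumina bead arrays. The log2 values deposited by the authors cover 48107 probes on each array, and 784 of these have none. Per the submitters' processing notes lumi was used. For its version, transformation, normalization and any batch adjustment before deposit: not given in the sources used here. Groups, replicates and batches came from the labels. Probes were named through the platform annotation (30113 with 1 symbol), with symbols updated by gene ID for 99.9% of them through the RefSeq table of GRCh38.p14. Older symbols that are another gene's current symbol were not followed.

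Probes whose mean reached the median of all probe means were tested in R 4.3.3 by limma 3.58.1, with group and batch as terms and an intensity trend in the moderated variance (9 residual degrees of freedom) with Benjamini-Hochberg adjustment over the 23662 probes. SE are moderated; for probes below the filter they come from the same fit on all probes. Within-batch differences are differences of means. A gene was represented by its brightest tested probe. Interactions added group by batch. The fit was tested on simulated data. Detection p-values were not used. Precision is set by how many arrays there are. Correlations between arrays were 0.991 to 0.998.

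The members and gene lists were chosen with earlier results of these data known. The text names every member probe, the brightest CYTOR probe, up to 4 called genes per list by smallest p, the markers, and the 4 probes most like LGALS3 by either measure; MGAT5, ULK1, VPS4B and the uncalled genes given as examples were added after their values were seen. Of 206 listed genes 12 had no named probe and were not analysed here. Replicate numbers are shared between the groups, and the labels do not tie them to a shared culture; they were not taken as pairs. Other settings tried concern batch, a replicate block, single arrays left out, the filter, normalization, the variance model, the threshold and the probe that stands for a gene.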

Additional observations from a re-analysis of the deposited data

Results flagged for a closer look

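In 2 of 20 groups of 6 values checked, a single array stood apart from the others by Dixon's criterion at 95%, and chance gives about 1 in 20. At the LGALS3BP probe ILMN_1659688, CYTOR LNA replicate 2 had 9.43 where the next array had 9.10 and the lowest 8.93. It is the only CYTOR LNA array of batch 1. At the LGALS8 probe ILMN_2353358, control LNA replicate 2 had 8.90 where the next had 8.72 and the lowest 8.61; without it the LGALS8 difference was the smallest of the leave-one-out range, -0.29.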

How the results depend on the processing

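The differences of LGALS1, LGALS3 ILMN_1803788 and the brighter LGALS8 probes kept their direction under all 9 alternative settings and without each of the 12 arrays. Settings that change only the filter or the variance model leave a probe's fitted difference as it was. For those settings the kept direction was fixed in advance and carries no information. Their leave-one-out ranges were -0.09 to -0.06 for LGALS1, 0.28 to 0.39 for LGALS3, -0.37 to -0.29 for LGALS8 ILMN_2353358 and -0.37 to -0.33 for ILMN_2356654; LGALS3BP ran from 0.064 to 0.22. Within batch 1, with its single CYTOR LNA array, LGALS3 differed by 0.54, LGALS3BP by 0.48, LGALS8 ILMN_2266214 by -0.072 and LGALS9 ILMN_2412214 by 0.15; within batch 2 LGALS3BP differed by 0.064. With the replicate number as a block beside batch, LGALS3 differed by 0.35 and the brighter LGALS8 probes by -0.34 and -0.35, and the counts over all probes were 826 for all probes lower and 408 for all probes higher, against 973 and 502 without the block. Among pathway genes 10 were then lower and 7 higher; the calls of TGFBR2 (adjusted p = 0.057), EGFR (0.076), CD82 (0.093) and VPS4B (0.068) were lost under the block. Same-numbered arrays of the groups correlated at -0.175 to 0.18 in their deviations, with 1 of 6 pairs above 0.1, and 1 of 6 CYTOR LNA arrays correlated best with its own number. Higher probes numbered 811 without the batch term and 1426 within batch 1. At an adjusted p of 0.01 there were 617 lower and 162 higher probes, and 7 lower and 4 higher pathway genes. Leaving out 1 array gave 7 to 14 lower and 4 to 8 higher pathway genes, and 0 to 1 member probes with a called interaction. The causes were not tested. Background was not measured, so at probes near the array median, both LGALS9 probes among them, a missing difference does not show that the transcript was unchanged.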
